A study of Sus scrofa with 6 samples.

Results

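The B cell and plasma cell genes described here were measured in the abdominal aorta of Wuzhishan miniature pigs. One group ate normal chow (NC) and the other a diet rich in fat, cholesterol and fructose (HFCF). The genes are CD79A, CD79B, MS4A1, BLNK, PAX5, POU2AF1, IRF4, JCHAIN and MZB1, 9 of the 30477 genes in the deposited table. They were chosen by name, 8 through the gene name in the table and MS4A1 through its gene ID (ENSSSCG00000021812), which the table lists without a symbol. Male pigs were fed for 6 months, and total RNA of the abdominal aorta was sequenced with 1 library per pig, 3 in the NC group (NC1 to NC3) and 3 in the HFCF group (HFCF1 to HFCF3). The sample labels give an age of 3 to 4 months and the methods a higher one at purchase. The tissue was sequenced whole, so fewer cells of a type and less RNA per cell cannot be told apart. Levels are given as FPKM, fragments per kilobase of transcript scaled to the mapped reads of the library, which allow genes of different length to be compared.

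B cells recognise antigen through a surface immunoglobulin held together with the signalling chains CD79A and CD79B, and the linker BLNK carries the signal inward. Once activated, some of them become plasma cells, which give up the B cell programme and secrete antibody. In arteries, B cells are known mainly from the adventitia, the outer coat, where lymphoid aggregates can form beside advanced plaques.

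The libraries were alike in relative depth, between 1 and 1.37 times that of NC1 as estimated from ratios of low values. They were not alike in summed FPKM, which was 272207 to 287141 in the NC pigs and 330222 to 338690 in the HFCF pigs. The number of reads behind a single value is not known. HFCF1 stood apart. It held the highest value of the 6 libraries in 32.7% of the 15384 tested genes, against 9.39% to 17.8% for each of the others. All 9 B cell and plasma cell genes had their highest value in HFCF1. A gene was tested when its mean over the 6 libraries reached 0.1 FPKM, and 8 of the 9 genes did so. MS4A1, POU2AF1 and IRF4 reached it only with HFCF1, and PAX5 did not reach it.

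With limma on log2(FPKM + 0.1), 2 of the 8 tested members, CD79A and BLNK, had an adjusted p under 0.05. Both were higher in the HFCF group, where 22.8% of all tested genes were called higher. Higher calls made up 78.7% of all calls, and 50.8%, 49.5% and 59.3% after median-ratio scaling, quantile normalization and rescaling to TPM. None was called lower, against 6.16% of all tested genes. At an unadjusted p under 0.05 there were 3 higher and 0 lower. The share of all tested genes at an unadjusted p was not counted. Counts at an unadjusted p, here and below, therefore cannot be set against the shares given, which are for adjusted p. All tested genes had a median log2 difference of 0.32, and CD79A and BLNK lay 1.82 and 3.38 above it. Without HFCF1 the same 2 genes were called, of 5 members still tested, while 18.5% of all genes tested then were called higher. Every HFCF pig lay above every NC pig in 4 of the 8 tested members, CD79A, CD79B, BLNK and MZB1, as in 36.1% of all tested genes.

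The plot of the 9 genes by pig shows 2 kinds of pattern, a rise shared by the HFCF pigs and a high value in HFCF1 alone.

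**Figure D1:**
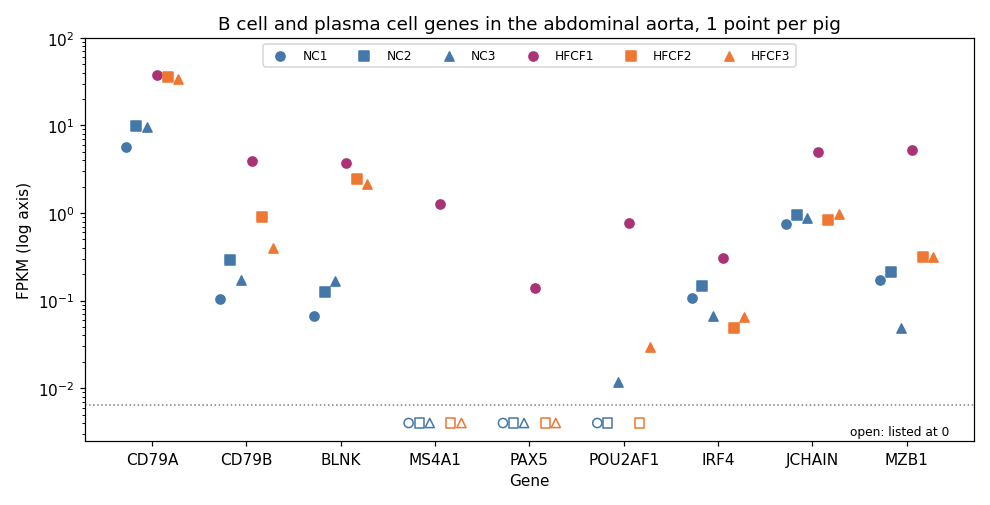
FPKM (log axis) of the 9 B cell and plasma cell genes, 1 point per pig, with NC pigs in blue, HFCF1 in purple and the other HFCF pigs in orange. Open symbols under the dotted line are values listed at 0. CD79A and BLNK separate the diets in every pig, whereas MS4A1 and PAX5 have a value in HFCF1 alone.

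CD79A (ENSSSCG00000033684), a signalling chain of the B cell receptor, had 5.64, 9.87 and 9.57 FPKM in the NC pigs and 38.0, 36 and 34.1 FPKM in HFCF1, HFCF2 and HFCF3. The groups did not overlap, and the HFCF pigs lay close together. The NC mean was 8.36 ± 2.36 FPKM and the HFCF mean 36.1 ± 1.96 FPKM (SD, n = 3 each). CD79A thus rose, with a log2 difference of 2.14 ± 0.23 (standard error, adjusted p = 0.00178, limma), and with HFCF1 left out the difference was 2.10 (adjusted p = 0.00614, limma). CD79A was the most abundant of the 9 genes in every pig.

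CD79B (ENSSSCG00000017283) encodes the partner chain, with which CD79A forms a dimer. It had 0.103, 0.289 and 0.170 FPKM in the NC pigs and 3.97, 0.901 and 0.398 FPKM in HFCF1, HFCF2 and HFCF3. All HFCF values were above the NC values, but HFCF1 was 4.41 times the next highest pig. The log2 difference of 2.19 had a standard error of 0.75 and did not pass (adjusted p = 0.0659, limma), and its 95% interval reached from 0.43 to 3.95. It was 1.35 without HFCF1 (adjusted p = 0.0905, limma) and passed without HFCF3, at 2.86 (adjusted p = 0.0292, limma).

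The ratio of CD79A to CD79B differed widely between pigs. It was 54.6, 34.1 and 56.2 in the NC pigs, 9.58 in HFCF1, 39.96 in HFCF2 and 85.8 in HFCF3. The lowest ratio was that of the pig with the highest CD79B. CD79A varied little among the HFCF pigs, while CD79B ran from 0.398 to 3.97 FPKM.

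MS4A1 encodes CD20, the surface protein used most often to stain B cells. It had 1.28 FPKM in HFCF1 and was listed at 0 in the other 5 pigs. No fold change can be given against a group listed at 0. The log2(FPKM + 0.1) values differed by 1.26 between the groups (standard error 1.02, adjusted p = 0.384, limma), a size set by the pseudocount and by 1 pig. HFCF2 and HFCF3 thus had 34.1 FPKM or more of CD79A with MS4A1 listed at 0.

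BLNK (ENSSSCG00000010504), the adaptor that joins the receptor to its downstream enzymes, had 0.0660, 0.124 and 0.168 FPKM in the NC pigs and 3.75, 2.43 and 2.15 FPKM in HFCF1, HFCF2 and HFCF3. The groups lay far apart, and HFCF1 was only 1.54 times the next pig. The NC mean was 0.119 ± 0.051 FPKM and the HFCF mean 2.77 ± 0.853 FPKM (SD, n = 3 each). BLNK rose with a log2 difference of 3.70 ± 0.34 (standard error, adjusted p = 0.00111, limma). Its size depended on the pseudocount, as the NC values were low, with 1.73 at a pseudocount of 1 and 4.47 at 0.01. Leaving out HFCF1 gave 3.47 (adjusted p = 0.00291, limma). BLNK is also known from macrophages, whose markers are given further on.

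Each HFCF pig was then set against the mean of the NC pigs. On the log2(FPKM + 0.1) scale CD79A lay 2.22, 2.14 and 2.06 above the NC mean in HFCF1, HFCF2 and HFCF3, and BLNK lay 4.16, 3.56 and 3.38 above it. For MZB1 the differences were 4.51, 0.84 and 0.83, and for JCHAIN 2.40, -0.05 and 0.17. The 3 pigs were thus alike in CD79A and BLNK and unlike in MZB1 and JCHAIN. Members outside antibody secretion were unlike as well. CD79B lay 3.87, 1.85 and 0.84 above the NC mean, and POU2AF1 differed from it by 3.05, -0.05 and 0.32. For MS4A1 the differences were 3.79, 0 and 0.

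**Figure D2:**
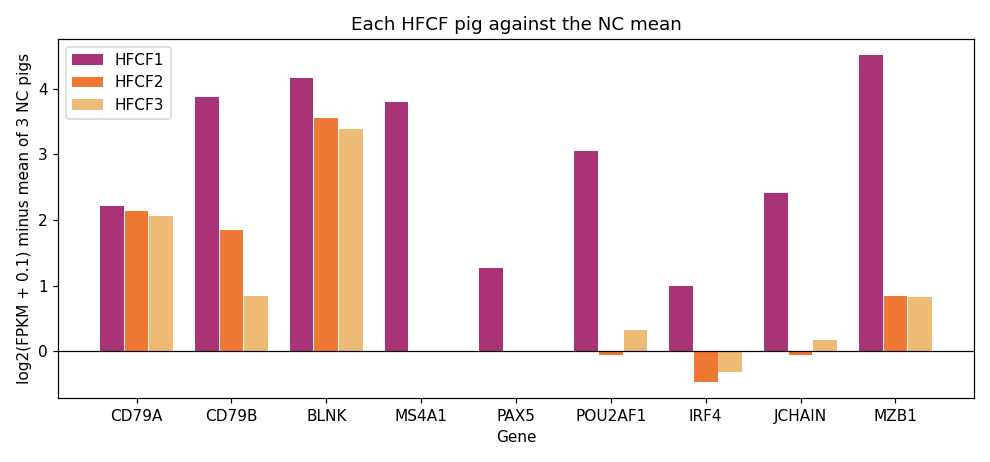
Difference of each HFCF pig from the mean of the 3 NC pigs on the log2(FPKM + 0.1) scale, with 1 bar per HFCF pig and gene. The 3 bars are alike in CD79A and BLNK, while in MS4A1, PAX5, POU2AF1, JCHAIN and MZB1 the bar of HFCF1 is the only one above 1.

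Among the transcription factors, PAX5 (ENSSSCG00000036086), which fixes B cell identity, had 0.141 FPKM in HFCF1 and was listed at 0 in the other 5 pigs. Its mean was too low for a test. POU2AF1 (ENSSSCG00000015016), the B cell coactivator that binds the octamer factors, had 0.762 FPKM in HFCF1, 0.0299 in HFCF3 and 0.0118 in NC3, and was listed at 0 in the other pigs. HFCF1 was 25.5 times the next highest pig, and the group difference did not pass (log2 difference 1.11, standard error 0.82, adjusted p = 0.347, limma).

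IRF4 (ENSSSCG00000033381), needed for plasma cells and also present in T cells and dendritic cells, had 0.106, 0.148 and 0.0674 FPKM in the NC pigs. It had 0.306 FPKM in HFCF1, 0.0486 in HFCF2 and 0.0647 in HFCF3. HFCF1 was the highest pig, and the other HFCF pigs were the lowest of the 6. The log2 difference was 0.07 with a 95% interval from -1.12 to 1.26 (adjusted p = 0.928, limma), and its sign changed with the pseudocount and the scaling.

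The genes of antibody secretion had their high values in HFCF1. JCHAIN (ENSSSCG00000035379), which links the units of multimeric IgA and IgM, had 0.746, 0.945 and 0.882 FPKM in the NC pigs and 4.95, 0.822 and 0.975 FPKM in HFCF1, HFCF2 and HFCF3. HFCF2 and HFCF3 lay in or just above the NC range, and HFCF1 was 5.07 times the next highest pig. The log2 difference was 0.84 (standard error 0.63, adjusted p = 0.35, limma), and it was 0.06 without HFCF1 (adjusted p = 0.894, limma).

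MZB1 (ENSSSCG00000029239), a chaperone of the endoplasmic reticulum that helps to assemble antibodies, had 0.172, 0.213 and 0.0489 FPKM in the NC pigs. It had 5.21 FPKM in HFCF1, 0.317 in HFCF2 and 0.315 in HFCF3. The HFCF pigs were all above the NC pigs, with HFCF1 16.5 times the next highest. The log2 difference of 2.06 did not pass (standard error 0.99, adjusted p = 0.161, limma), and it was 0.83 without HFCF1 (adjusted p = 0.221, limma).

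In 6 of the 9 genes, CD79B, MS4A1, PAX5, POU2AF1, JCHAIN and MZB1, HFCF1 was at least 3 times the highest of the other 5 pigs. This was so in 5.06% of the 21816 genes with a value in any pig. Among the 8 tested members it was so in 5, against 2.57% of all tested genes, but MS4A1 and POU2AF1 were tested only through HFCF1. The fold of 3 was set after the values had been seen. With folds of 2 and 5 the count among the 9 genes was 7 and 5. No test applies to 1 pig.

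**Figure D3:**
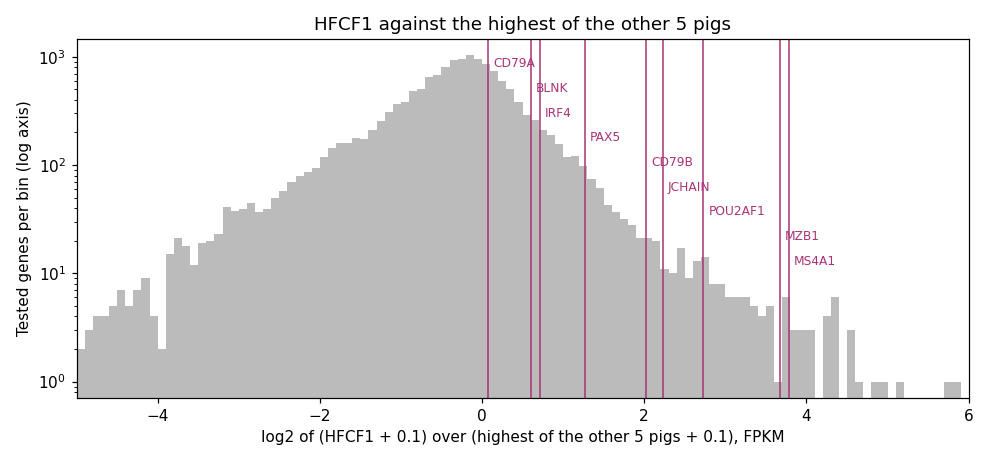
Histogram of the 15384 tested genes (log count axis) by the log2 ratio of HFCF1 to the highest of the other 5 pigs, each with 0.1 FPKM added. The lowest ratios lie beyond the axis and are not shown, and PAX5 is marked although it was not tested. Purple lines mark the 9 B cell and plasma cell genes, which run from CD79A, near 0, to MZB1 and MS4A1 in the right tail.

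Immunoglobulin genes were read as a further measure of antibody-producing cells. By name or description only 1 row was found, and it was too low for a test. After the values had been seen, the 7 rows that the table types as constant or variable immunoglobulin segments were taken in addition. Their summed level was 0.804, 0.671 and 2.36 FPKM in the NC pigs and 68.5, 6.66 and 7.78 FPKM in HFCF1, HFCF2 and HFCF3. All HFCF pigs lay above the NC pigs, and HFCF1 was again far above the others.

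The constant segment (ENSSSCG00000010044) had 0.260, 0.187 and 1.13 FPKM in the NC pigs and 25.3, 2.88 and 1.9 FPKM in HFCF1, HFCF2 and HFCF3. The log2 difference was 3.40 (standard error 1.01, adjusted p = 0.0425, limma) and 2.28 without HFCF1 (adjusted p = 0.0547, limma). Of the 4 segments tested, 3 were called higher with all pigs and 1 without HFCF1. The shares called higher over all tested genes were 22.8% and 18.5% in these fits, so the count without HFCF1 lay near the general share. The variable segment that kept its call (ENSSSCG00000048391) had 20.9, 1.19 and 2.24 FPKM in the HFCF pigs against 0.0905 to 0.543 FPKM in the NC pigs. A further variable segment had 19.9, 2.59 and 2.84 FPKM in the HFCF pigs and at most 1.01 FPKM in the NC pigs, and its log2 difference of 3.83 was 2.89 without HFCF1 (adjusted p = 0.035 and 0.077, limma). Reads of such segments can be shared between near-identical copies, and how they were divided is not given in the sources used here.

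Signalling genes downstream of the antigen receptor were taken from a list of 22, of which 20 were found and tested. CR2 and FCGR2B are not analysed here. Of the 20 tested, 13 were called higher, 0 lower, and 7 did not pass, where 22.8% of all tested genes were called higher. At an unadjusted p under 0.05 there were 16 higher and 0 lower. Their median log2 difference was 2.33 against 0.32 for all tested genes. Without HFCF1, 12 were called higher and the median was 1.62. Of all genes tested then, 18.5% were called higher, and their median was 0.295. Many of these enzymes also serve myeloid cells.

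At a pseudocount of 0.1 the list was led by PTPN6 (log2 difference 4.35, adjusted p = 0.00115, limma), the phosphatase SHP-1, which had 45.2, 18.9 and 14.3 FPKM in the HFCF pigs against 0.926 to 1.10 FPKM in the NC pigs. BTK, the kinase whose loss blocks B cell development in people, had 16.0, 8.16 and 6.75 FPKM in the HFCF pigs against 0.428 to 0.558 FPKM in the NC pigs (log2 difference 4.05, adjusted p = 0.000903, limma). VAV1 (3.90), BANK1 (3.84) and PIK3AP1 (3.81) rose by similar amounts, and SYK, which docks on CD79A and CD79B, rose by 3.23 (adjusted p = 0.00396, limma). In SYK the HFCF pigs had 8.62, 3.75 and 2.48 FPKM and the NC pigs 0.287 to 0.472 FPKM. LYN, which starts the signal, rose by 1.68 (adjusted p = 0.0141, limma), with 14.1, 6.02 and 5.77 FPKM in the HFCF pigs and 2.20 to 2.72 FPKM in the NC pigs. Without NC1 the call of LYN did not hold (adjusted p = 0.0556, limma). HFCF1 was the highest pig in each of these genes.

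CD22, a restraining coreceptor of B cells, had 0.364, 0.398 and 0.307 FPKM in the NC pigs and 4.91, 2.43 and 2.21 FPKM in HFCF1, HFCF2 and HFCF3. This is a log2 difference of 2.76 (adjusted p = 0.00286, limma). BLK, a kinase with a narrow B cell expression that is named here after its values were seen, had 2.12 FPKM in HFCF1 and 0.253 and 0.226 FPKM in HFCF2 and HFCF3. Its NC pigs had 0.0125 to 0.0761 FPKM, and its log2 difference of 2.14 did not pass (adjusted p = 0.0738, limma).

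Of the 13 transcription factors of the B lineage, all found and tested, 4 were called higher and 0 lower (5 and 1 at an unadjusted p under 0.05). Over all tested genes, 22.8% were called higher and 6.16% lower. The median log2 difference of the factors was 0.88. Without HFCF1, 2 of 12 factors were called higher, against 18.5% of all genes tested then, so both counts lay near the general share. SPI1, which encodes PU.1 and also directs macrophages, had 1.95 to 3.13 FPKM in the NC pigs and 128, 50.5 and 40.8 FPKM in the HFCF pigs (log2 difference 4.56, adjusted p = 0.00117, limma). CIITA, the switch for MHC class II genes, had 6.75, 4.75 and 4.51 FPKM in the HFCF pigs and 0.845 to 1.06 FPKM in the NC pigs (log2 difference 2.39, adjusted p = 0.00138, limma). These 2 were the factors called without HFCF1.

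IKZF3, a lymphoid factor, and BCL6, the factor of the germinal centre, passed narrowly (adjusted p = 0.0479 and 0.0393, limma), and neither call held in 11 of the alternatives. EBF1, which B cells share with vascular stroma, had 4.68 to 8.12 FPKM in the NC pigs and 6.63 to 9.28 FPKM in the HFCF pigs (adjusted p = 0.257, limma). SPIB had 0.903 FPKM in HFCF1 and at most 0.0668 FPKM in any other pig. BACH2, which holds back plasma cell development, had 0.328 to 3.52 FPKM in the NC pigs and 0.066 to 0.591 FPKM in the HFCF pigs, with overlap (adjusted p = 0.152, limma).

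The plasma cell programme gave 3 genes called higher, 3 lower and 10 not called among the 16 found and tested of 18, with a median log2 difference of 0.17. Over all tested genes, 22.8% were called higher and 6.16% lower. Without HFCF1, 3 of 14 programme genes were called higher and 2 lower, and their median was -0.003. The share called higher over all genes was then 18.5%, and 786 of 15168 genes were called lower. PRDM1, the factor that drives plasma cells and also acts in T cells and macrophages, had 0.0544, 0.064 and 0.26 FPKM in the NC pigs and 2.58, 0.715 and 0.548 FPKM in HFCF1, HFCF2 and HFCF3 (log2 difference 2.43, adjusted p = 0.0281, limma). The call did not hold in 6 of 14 alternatives. DERL3 and SSR4, which serve protein export and quality control in the endoplasmic reticulum, rose by 1.43 (adjusted p = 0.0125, limma) and 0.88 (adjusted p = 0.00819, limma). The call of DERL3 did not hold after quantile normalization (adjusted p = 0.0948, limma), nor that of SSR4 after median-ratio scaling (adjusted p = 0.0635, limma). In DERL3 the HFCF pigs were alike, at 1.34, 1.21 and 1.23 FPKM against 0.338 to 0.568 FPKM in the NC pigs. CREB3L2 fell by 0.995 (adjusted p = 0.0133, limma), PIM2 fell by 1.16 (adjusted p = 0.0316, limma) and HERPUD1 fell by 0.57 (adjusted p = 0.0426, limma) on the log2 scale, and the calls of PIM2 and HERPUD1 did not hold in 6 and 9 of 15 alternatives.

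The defining plasma cell genes varied. CD38 had 1.18 FPKM in HFCF1 and at most 0.135 FPKM in the other pigs. TNFRSF17, which encodes the survival receptor BCMA, had 1.66, 1.58 and 3.22 FPKM in the NC pigs and 3.70, 1.20 and 0.655 FPKM in HFCF1, HFCF2 and HFCF3. HFCF1 was highest for both, and the groups overlapped in both. SDC1, the surface proteoglycan CD138, and XBP1, the driver of the secretory apparatus, are made by many other cells and overlapped between the groups at 2.08 to 4.81 and 37.2 to 50.6 FPKM.

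Genes of B cell survival and lymphoid tissue were called higher in 6 and lower in 0 of 17 tested, 21 of 22 being found (9 and 1 at an unadjusted p under 0.05). Their median log2 difference was 0.98, and 5 of 15 were called without HFCF1. The shares called higher over all tested genes were 22.8% with all pigs and 18.5% without HFCF1. TNFSF13B encodes BAFF, the survival cytokine of B cells, which macrophages release. It had 0.0466, 0.148 and 0.3002 FPKM in the NC pigs and 9.64, 4.03 and 3.26 FPKM in HFCF1, HFCF2 and HFCF3 (log2 difference 4.39, adjusted p = 0.00236, limma). TNFSF13, its relative APRIL, rose as well, with an NC mean of 3.97 ± 0.198 FPKM and an HFCF mean of 14.8 ± 5.10 FPKM (SD, n = 3 each; adjusted p = 0.00346, limma).

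TNFRSF13C and TNFRSF13B, receptors for these cytokines on B cells, had at most 0.868 FPKM in any pig, and neither was called. The survival receptor TNFRSF17, given above, had 1.58 to 3.22 FPKM in the NC pigs and 0.655 to 3.70 FPKM in the HFCF pigs. TNFRSF13C, the BAFF receptor, had 0.169 to 0.588 FPKM in the NC pigs and 0.525 to 0.868 FPKM in the HFCF pigs. Its log2 difference was 0.92 (adjusted p = 0.143, limma). The interval of this difference reached from -0.07 to 1.92, so a rise is not excluded. TNFRSF13B, the shared receptor TACI, had 0.115 to 0.163 FPKM in the NC pigs and 0.0458 to 0.418 FPKM in the HFCF pigs (adjusted p = 0.901, limma), and the sign of its difference changed with the pseudocount and the scaling.

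Among the chemokines, CCL21, which draws lymphocytes through CCR7, had 51.0 to 55.9 FPKM in the NC pigs and 284, 96.0 and 165 FPKM in HFCF1, HFCF2 and HFCF3 (log2 difference 1.63, adjusted p = 0.0167, limma), and its call did not hold without NC1 (adjusted p = 0.063, limma). CXCL13, the attractant of B cell follicles, had at most 0.0763 FPKM in the NC pigs and 0.575, 0.150 and 0.331 FPKM in the HFCF pigs (adjusted p = 0.0367, limma). That call did not hold in 8 of 14 alternatives. Its receptor CXCR5 had 0.552 to 0.587 FPKM in the NC pigs and 0.230 to 0.336 FPKM in the HFCF pigs, with no overlap (log2 difference -0.83, adjusted p = 0.0735, limma). It was called lower in 4 of 14 alternatives, namely the 3 scalings and the fit with no variance trend (lowest adjusted p = 0.0148, limma). CCL19 lay at 68.8 to 136 FPKM in the NC pigs and 72.9 to 117 FPKM in the HFCF pigs. CXCR4, a homing receptor of many leukocytes, rose with 96.0 FPKM in HFCF1 against 18.1 and 20.8 FPKM in HFCF2 and HFCF3 (adjusted p = 0.00612, limma), and CD40, the receptor for T cell help, rose by 1.17 (adjusted p = 0.00296, limma), with 27.0, 23.7 and 22.2 FPKM in the HFCF pigs. FDCSP, a marker of follicular dendritic cells, was listed at 0 in all 6 pigs, and PIGR, the transporter of multimeric antibody, had at most 0.0859 FPKM.

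**Figure D4:**
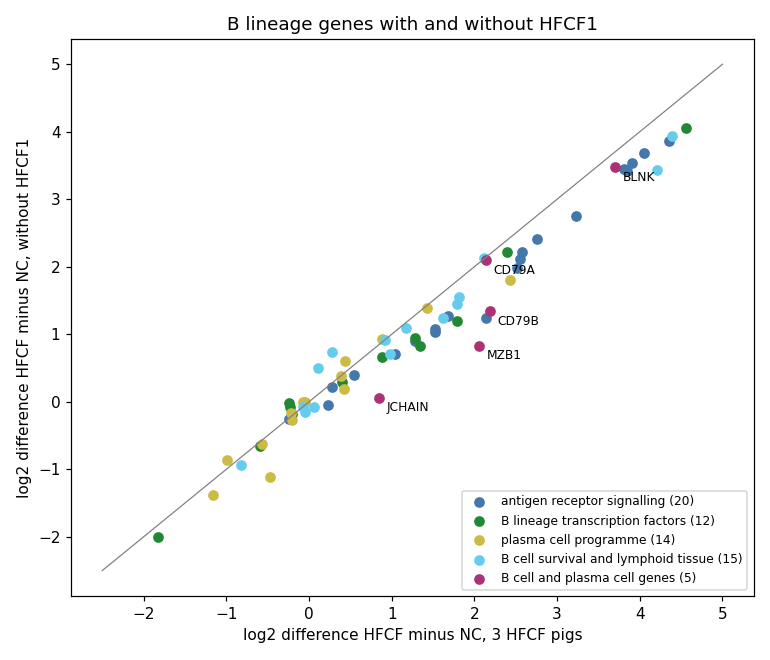
Log2 difference between the HFCF and NC groups with all pigs (x axis) and without HFCF1 (y axis) for the genes of the B lineage lists and the B cell and plasma cell genes tested in both fits, 1 point per gene. The grey line marks equal values. JCHAIN and MZB1 lie well under the line and CD79A lies on it.

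Other cell types moved with these genes. Macrophage markers summed to 48.4 to 60.1 FPKM in the NC pigs and 1823, 796 and 704 FPKM in HFCF1, HFCF2 and HFCF3, and 11 of the 11 tested were called higher, none being at 0 in the NC group. T cell markers summed to 1.16 to 1.65 FPKM in the NC pigs and 20.9, 4.22 and 4.49 FPKM in the HFCF pigs, with 2 of 9 tested called higher, 1 of 8 without HFCF1, and CD8B listed at 0 in all NC pigs. The shares called higher over all tested genes were 22.8% and 18.5% in these 2 fits. Red blood cell markers summed to 22.0 to 178 FPKM in the NC pigs, 2883 FPKM in HFCF1 and 85.6 and 95.5 FPKM in HFCF2 and HFCF3. HFCF1 was thus the highest pig for the sums of macrophage, T cell and red blood cell markers as well as for the B cell genes. Single markers went otherwise. CD3G was listed at 0 in HFCF1 and had 1.13 FPKM in HFCF2, and MRC1 had 1.41 FPKM in HFCF1 and 3.44 FPKM in HFCF3. The part of these cells in the B cell results was not tested.

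Contractile smooth muscle markers, which define the aortic wall, summed to 16413 to 23824 FPKM in the NC pigs and 8345, 9739 and 13266 FPKM in HFCF1, HFCF2 and HFCF3, with 7 of 9 called lower, and 4 of 9 without HFCF1. Dendritic cell markers were called higher in 3 of 6 tested and in 1 of 5 without HFCF1, and fibroblast markers in 1 of 6 either way. Over all tested genes, 22.8% were called higher and 6.16% lower. Without HFCF1, 18.5% were called higher, and 786 of 15168 genes lower. The dendritic cell and fibroblast counts without HFCF1 thus lay near the general share. None of the 7 endothelial, 5 adipocyte and 2 red blood cell markers tested was called by limma, and 2, 0 and 0 of them had an unadjusted p under 0.05. The labelled tissue held its defining markers in every pig.

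**Figure D5:**
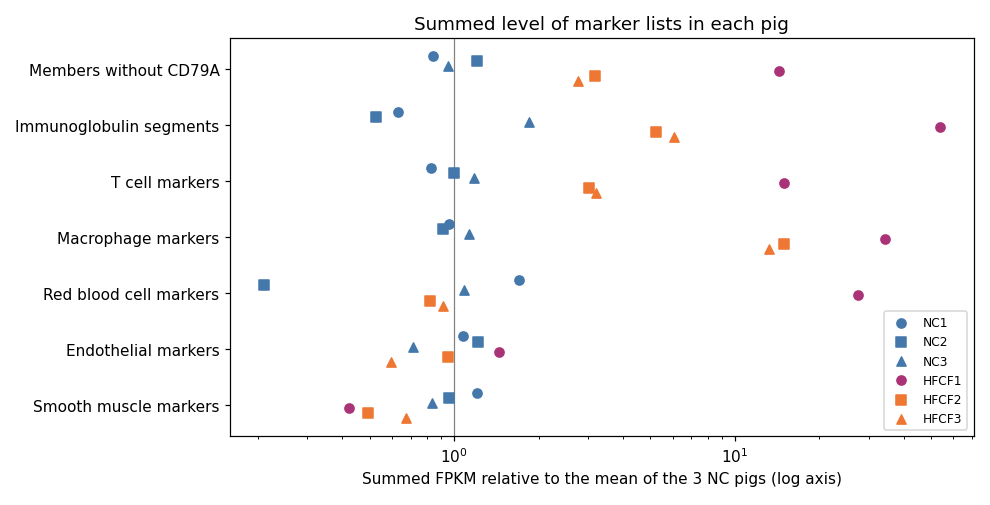
Summed FPKM of 7 gene groups in each pig relative to the mean of the 3 NC pigs (log axis), with NC pigs in blue, HFCF1 in purple and the other HFCF pigs in orange. HFCF1 is the highest pig in every group but smooth muscle, in which it is the lowest.

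Without CD79A, the B cell and plasma cell genes summed to 1.19, 1.72 and 1.35 FPKM in the NC pigs and to 20.4, 4.52 and 3.93 FPKM in HFCF1, HFCF2 and HFCF3. By the annotation in the table, CD79A, CD79B and BLNK were the members of the B cell receptor signaling pathway of KEGG among the 9. Of the 65 genes of that pathway, all tested, 26 were called higher and 3 lower, with a median log2 difference of 0.60. Over all tested genes, 22.8% were called higher and 6.16% lower. The mean pattern of the 8 tested members, centred over the 6 libraries, was nearest to that of DNAJB1, a heat shock cochaperone, with a root mean square difference of 0.13 on the log2 scale. MAP3K1, LRRC70, GPSM3 and HK3 followed at 0.18 to 0.28 among 9578 genes compared. MS4A1, POU2AF1 and IRF4 entered the mean pattern only because HFCF1 lifted them over the filter, so its peak in HFCF1 is partly set by the filter. The pattern also averages the shared rise of CD79A and BLNK with genes high in HFCF1 alone. The ranking therefore does not describe single members.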

How the data were processed

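The authors trimmed the reads with cutadapt 1.9, aligned them with HISAT2, used StringTie for assembly and quantification, and deposited 1 column of FPKM values per pig, per the methods and the submitters' processing notes. A high FPKM of some genes lowers that of the others in the same library. Values of 0.0001 or less were read as 0. No coordinates are given, as the methods name another pig build than the reference table.

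The 15384 genes whose mean reached 0.1 FPKM were fitted on the log2(FPKM + 0.1) scale by limma 3.58.1 in R 4.3.3. Diet was the only factor, the prior variance followed a trend, and p-values were adjusted over these genes by the Benjamini-Hochberg method. All tests were two-sided. An exact permutation test of 3 pigs against 3 cannot go below p = 0.1. The fit was tested on simulated data with independent errors, in which no library stood apart as HFCF1 did. That setting is simpler than these data, so it does not show that the calls given here are right. Intervals of a log2 difference are 95% intervals from limma.

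The 9 members and all lists were chosen with earlier results of these data known. Named were all members, up to 6 called genes a list and direction, and defining genes. Some genes of the lists are not reported here by name. Symbols came from the table, then from gene IDs or descriptions, and rows without a match are left out. The planned description of protein and promoter sequences was not done. Libraries are 1 per pig, and p-values measure the spread between these pigs. Alternatives were other pseudocounts, filters and scalings, no trend, a replicate block, each pig left out, and the study's thresholds.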

Additional observations from a re-analysis of the deposited data

How the results depend on the processing

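CD79A and BLNK were called in all 15 alternative fits, and no member was called lower. CD79B was called as well without HFCF3 and with the study's thresholds. Over all genes, 3505 were called higher and 948 lower (78.7% higher). After median-ratio scaling these were 2032 and 1968 (50.8%), with quantile normalization 1748 and 1782 (49.5%), with TPM rescaling 2229 and 1527 (59.3%) and with the replicate block 2232 and 540. The scalings moved the median log2 difference of all genes from 0.32 to 0.00, -0.07 and 0.09. With 1 pig left out, 1979 to 2815 genes were higher and 442 to 786 lower, the fewest without NC1, with 542 lower without NC2. In the B lineage lists 26 genes were higher and 3 lower, with 17 to 25 and 1 to 2 when 1 pig was left out, the fewest higher without NC1 and the fewest lower without NC2, HFCF2 or HFCF3. The lower count was 1 with no filter, 7, 5 and 6 under those scalings in the same order, and 1 with the replicate block. The cause was not tested.

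Signs changed only in genes that were not called. IRF4 was -0.0137 with a pseudocount of 0.01 and -0.11, -0.26 and -0.17 with the same 3 scalings. TNFRSF13B was -0.0123, -0.0943, -0.28 and -0.16 in the same order, and -0.42 to 0.49 with 1 pig left out. With 1 pig other than HFCF1 left out, IRF4 was -0.0736 to 0.34. Without HFCF1 it was under the filter and not tested. HFCF2 and HFCF3 differed from the NC mean of IRF4 by -0.46 and -0.31 on the log2(FPKM + 0.1) scale. SDC1 was -0.0718 under quantile normalization. TNFRSF17 lay between -1.11 and 0.0530 and CCL19 between -0.33 and 0.18 with 1 pig left out. After centring within each group, same-numbered pigs had correlations of 0.02, -0.08 and -0.07 across genes, and differently numbered pigs -0.07 to 0.13. With 3 pigs a group these values cannot exclude a pairing. The replicate block changed no call of a member.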

Other observations

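CD79A lies between ARHGEF1 and RPS19 among the protein-coding genes of pig assembly Sscrofa11.1. RPS19, a ribosomal protein gene found in the table by its description and looked up after the values had been seen, had 75.3, 94.7 and 71.7 FPKM in NC1, NC2 and NC3 and 126, 157 and 158 FPKM in HFCF1, HFCF2 and HFCF3. Its log2 difference was 0.87 (adjusted p = 0.0112, limma), against 2.14 for CD79A. Whether reads are shared between these neighbours was not tested.

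The KEGG network for intestinal IgA production, counted after the values had been seen, held 40 genes. Of the 30 tested, 17 were called higher and 0 lower by limma, with 20 and 0 at an unadjusted p under 0.05, and the median log2 difference was 1.38. Without HFCF1, 17 of 29 were called higher and the median was 1.05. The shares called higher over all tested genes were 22.8% with all pigs and 18.5% without HFCF1.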
